A study of Mus musculus with 6 samples.

Results

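The genes described here are 9 mouse genes of the cell-surface serine protease system. They are the 7 proteases St14, Hpn, Tmprss2, Tmprss4, Tmprss13, Prss8 and Prss22 and the 2 protease inhibitors Spint1 and Spint2. They were found by symbol among the 52325 Ensembl genes of the table, and all 9 passed the filter on low counts, as did 20684 genes in all. The set was chosen by its members' values in the same comparison that is described below, Elf5-positive against Elf5-negative cells, so the members' differences between these groups are given as a description and without a test.

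RNA was sequenced from cells sorted out of breast tumours of C57BL/6 mice labelled C3-T and Elf5-GFP. In this reporter green fluorescent protein (GFP) marks expression of Elf5, a transcription factor of the ETS family that is needed for the milk-producing alveoli and is active in luminal progenitors. Both groups came from such tumours and from this strain, and the labels' genotype field, Elf5+ or Elf5-, differs between them and follows the GFP sort. They differed in GFP after a first sort with antibodies to CD45, CD31 and TER119 (surface proteins of leukocytes, endothelium and red cells), which gave 2 libraries with GFP, called Elf5-positive here, and 4 without it, called Elf5-negative. Age, the meaning of C3-T and whether libraries came from separate animals are not stated, so the spread between libraries may be technical. Titles carry 1 of 2 numbers and a code, T1 or T2, that the labels leave undefined: Elf5-positive library 1 and Elf5-negative library 2 are T2 with one number, Elf5-positive library 2 and Elf5-negative library 4 are T2 with the other, and Elf5-negative libraries 1 and 3 are T1.

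Elf5-negative library 4 held 9106660 counts and the other 5 libraries 32602477 to 53694884. Elf5 itself was at 77.7 and 137 CPM (counts scaled to a common total, and then with the TMM factors of edgeR) in the Elf5-positive libraries and at 6.93 to 24.7 CPM in the Elf5-negative ones. The summed level of 18 epithelial genes, such as Epcam and Krt8, was 6098 to 8987 CPM in Elf5-positive and 2265 to 3894 CPM in Elf5-negative libraries. This list leaves out the basal epithelial markers given further on, so it does not stand for all epithelial cells. All 12 fibroblast markers (Col1a1, Dcn, Pdgfra and others) were detected, and together they reached 1128 to 1391 CPM in Elf5-positive and 17469 to 51444 CPM in Elf5-negative libraries. Summed skeletal muscle markers were 225.0 CPM in Elf5-negative library 1, 38.3 CPM in Elf5-negative library 2 and 3.05 to 6.48 CPM elsewhere. Summed leukocyte markers were 148 to 190.1 CPM in Elf5-positive and 84.7 to 234 CPM in Elf5-negative libraries.

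Serine proteases of the cell surface cut other proteins outside the cell and are made as inactive zymogens. Matriptase, the product of St14, is the best known of them in epithelia, where it and prostasin (Prss8) activate each other, and where they act on growth factor precursors, protease-activated receptors, the epithelial sodium channel and the adhesion protein EpCAM. The Kunitz-type inhibitors HAI-1 (Spint1) and HAI-2 (Spint2) are transmembrane proteins that bind and block the active proteases, and in epithelial cells they are made together with them. Matriptase is studied in breast cancer for its role in releasing active hepatocyte growth factor.

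The 7 proteases share one active site, and the coding sequence around its serine is printed below to show how closely related they are, since reads are shared out among genes by sequence. Each stretch is the coding strand, 5′ to 3′, 63 bases long, from the GENCODE transcript with the longest coding sequence on GRCm38, with the codon of the catalytic serine in capitals.
St14: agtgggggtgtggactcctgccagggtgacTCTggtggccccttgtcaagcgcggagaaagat
Prss8: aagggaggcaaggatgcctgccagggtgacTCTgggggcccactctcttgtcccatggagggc
Prss22: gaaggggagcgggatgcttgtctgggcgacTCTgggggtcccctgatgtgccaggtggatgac
Hpn: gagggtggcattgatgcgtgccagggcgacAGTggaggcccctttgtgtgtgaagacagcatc
Tmprss2: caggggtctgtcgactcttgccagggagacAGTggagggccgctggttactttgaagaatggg
Tmprss4: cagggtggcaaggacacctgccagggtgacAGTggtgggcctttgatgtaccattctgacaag
Tmprss13: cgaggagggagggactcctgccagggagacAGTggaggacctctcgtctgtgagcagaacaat
The serine is codon 805 of 855 in St14, 238 of 339 in Prss8, 242 of 307 in Prss22, 381 of 445 in Hpn, 439 of 490 in Tmprss2, 385 of 435 in Tmprss4 and 492 of 548 in Tmprss13. It was written as TCT in St14, Prss8 and Prss22 and as AGT in the 4 others. Of the 63 positions, 22 were identical in all 7 genes, and any pair of genes shared 52.4% to 65.1% of the bases. No pair is near-identical even in this most conserved part. Spint1 and Spint2 are not proteases and held no such stretch.

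RefSeq promoter windows were at hand for Spint1, Spint2, Hpn and Tmprss2 only. The 3 windows that held a match of a motif named below are printed. Each is the 250 bases before the RefSeq start on GRCm38.p6, 5′ to 3′ on the gene's strand. They lie at chr2:119237110-119237359 (+) for Spint1, chr7:29281978-29282227 (-) for Spint2 and chr7:31115327-31115576 (-) for Hpn. Capitals mark every match, on either strand, of GGAAGT (an ETS core), AACNGGTT (a grainyhead motif) or CAGGTG (an E-box bound by Zeb and Snail factors).
Spint1: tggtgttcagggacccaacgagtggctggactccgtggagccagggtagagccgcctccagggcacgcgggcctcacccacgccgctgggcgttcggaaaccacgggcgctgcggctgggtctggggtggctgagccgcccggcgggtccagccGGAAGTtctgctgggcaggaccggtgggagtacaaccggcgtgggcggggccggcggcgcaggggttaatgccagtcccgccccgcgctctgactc
Spint2: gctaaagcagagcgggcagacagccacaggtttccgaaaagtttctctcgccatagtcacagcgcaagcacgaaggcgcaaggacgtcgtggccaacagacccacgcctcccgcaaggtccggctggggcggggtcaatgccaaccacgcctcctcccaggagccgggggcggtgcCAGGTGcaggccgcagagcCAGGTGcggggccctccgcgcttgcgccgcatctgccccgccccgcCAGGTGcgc
Hpn: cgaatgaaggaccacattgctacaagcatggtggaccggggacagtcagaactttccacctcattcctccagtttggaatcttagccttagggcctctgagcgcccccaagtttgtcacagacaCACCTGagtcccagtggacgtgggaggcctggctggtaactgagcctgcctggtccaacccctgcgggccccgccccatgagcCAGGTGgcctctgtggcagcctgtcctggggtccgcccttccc
The Spint1 window held 1 GGAAGT, 96 bases before the start, and no CAGGTG. The Spint2 window held 3 CAGGTG, 74, 55 and 9 bases before the start, and no GGAAGT. The Hpn window held 2 CAGGTG, and a second Hpn window and the Tmprss2 window held none of the 3 motifs. No matches overlapped. Among 32851 windows of the same length, 19.7% held GGAAGT, 1.79% held AACNGGTT and 17.2% held CAGGTG, with 2.06% holding CAGGTG 2 or more times and 0.247% 3 or more times. These matches describe the letters only. No binding was measured here.

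With TMM scaling all 9 genes had a positive log2 fold change for Elf5-positive over Elf5-negative cells (4 of them turned negative when libraries were scaled to epithelial genes, as given further on), from 0.32 for Tmprss4 to 2.71 for Tmprss13, with a median of 1.63. For 7 of the 9 both Elf5-positive libraries lay above all 4 Elf5-negative ones, while Tmprss4 and Prss22 overlapped. In sorted bulk samples, fewer epithelial cells and less of a transcript per cell cannot be told apart. Across all genes tested the median was 0.05, and 2246 genes, 10.9%, lay higher without overlap. With edgeR's quasi-likelihood test at an adjusted p below 0.05, St14, Tmprss13, Prss8 and Spint2 were among the genes called higher, 0.585% of all tested, and no member was among those called lower, 3.79%. Since the same contrast chose the members, nothing is read from that count. It was 2 (Tmprss13 and Prss8) without Elf5-positive library 1 and also without Elf5-negative library 1. Leaving out Elf5-negative libraries 1 and 2 together it was 0, and 0 genes in all were called higher. At an unadjusted edgeR p below 0.05, 539 genes were higher there, 7 of them members, and nothing is read from this either.

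**Figure D1:**
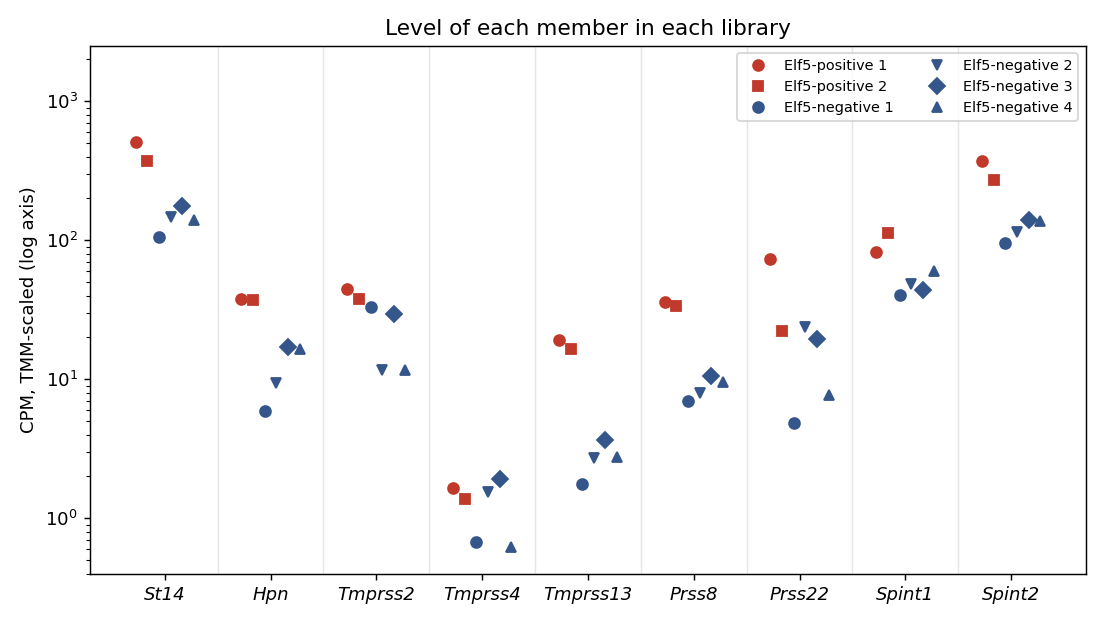
Level of each of the 9 genes in each library, in TMM-scaled CPM on a log axis. Red points are the 2 Elf5-positive and blue points the 4 Elf5-negative libraries. The 2 colours are apart for 7 genes and mixed for Tmprss4 and Prss22.

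Among the 5 type II transmembrane proteases, which are held in the membrane by a signal anchor near the N terminus, St14 was by far the most abundant. St14 (matriptase, chr9:31089402-31131853, minus strand, GRCm38) was at 507 and 373 CPM in Elf5-positive libraries 1 and 2 and at 105, 147, 178 and 139.8 CPM in Elf5-negative libraries 1 to 4. The groups did not overlap, and the lowest Elf5-negative value was that of library 1. The means were 439.9 ± 94.2 CPM (SD, n = 2) and 142 ± 29.8 CPM (SD, n = 4), which is 1.63 ± 0.27 (SE) as a log2 fold change, or 3.09-fold.

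Tmprss13, a protease best known from the epidermis, had the largest fold change of the 9. It was at 19.3 and 16.5 CPM in the Elf5-positive libraries and at 1.77, 2.71, 3.68 and 2.78 CPM in the Elf5-negative ones (chr9:45319100-45347581, plus strand). Even the lower Elf5-positive library was 4.49-fold above the highest Elf5-negative one. The means were 17.9 ± 1.92 CPM (SD, n = 2) and 2.73 ± 0.782 CPM (SD, n = 4), which is 2.71 ± 0.36 (SE) as a log2 fold change, or 6.54-fold. A transcript annotated on the opposite strand, 1700003G13Rik, had 0 to 5 counts per library against 27 to 856 for Tmprss13.

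Hpn encodes hepsin, a protease most abundant in liver that activates hepatocyte growth factor. It was at 38.1 and 36.9 CPM in the Elf5-positive libraries and at 5.92, 9.36, 16.9 and 16.5 CPM in the Elf5-negative ones (chr7:31098725-31115290, minus strand). The Elf5-positive libraries were nearly alike, and the Elf5-negative ones split by title number, with those of the number of libraries 1 and 2 lower than those of libraries 3 and 4. The log2 fold change was 1.63 ± 0.42 (SE), with means of 37.5 ± 0.805 CPM (SD, n = 2) and 12.2 ± 5.42 CPM (SD, n = 4).

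Tmprss2, an androgen-responsive protease of prostate and airway that also primes viral glycoproteins, varied along another line. It was at 44.5 and 37.8 CPM in the Elf5-positive libraries and at 33.2, 11.6, 29.7 and 11.7 CPM in the Elf5-negative ones (chr16:97564682-97611195, minus strand). Here the T1 libraries, Elf5-negative 1 and 3, lay close to the Elf5-positive ones, which are both T2, and the T2 Elf5-negative libraries 2 and 4 lay well below. The lower Elf5-positive library was 1.14-fold above the highest Elf5-negative one. The log2 fold change was 0.93 ± 0.47 (SE) over all libraries and 1.82 among the T2 libraries fitted with the title number as a block. Both Elf5-positive libraries are T2, so the value over all libraries sets them against T1 and T2 libraries together. The T2 value rests on 4 libraries. What T1, T2 and the title number mark is not stated, so neither value is preferred.

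Tmprss4, a protease reported as raised in several carcinomas, was near the lower end of what was measured. It was at 1.66 and 1.37 CPM in the Elf5-positive libraries and at 0.677, 1.54, 1.93 and 0.617 CPM in the Elf5-negative ones, the last from 6 counts (chr9:45172726-45204092, minus strand). The groups overlapped, since Elf5-negative library 3 was the highest of all 6. The log2 fold change was 0.32 ± 0.59 (SE).

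Prss8 encodes prostasin, a protease held by a glycosylphosphatidylinositol anchor and known as a channel-activating protease. It was at 35.7 and 33.8 CPM in the Elf5-positive libraries and at 6.94, 7.94, 10.6 and 9.56 CPM in the Elf5-negative ones (chr7:127925716-127930104, minus strand). Both groups were tight and far apart. The means were 34.7 ± 1.41 CPM (SD, n = 2) and 8.76 ± 1.63 CPM (SD, n = 4), which is 1.99 ± 0.26 (SE) as a log2 fold change, or 3.97-fold. Exons of Kat8 overlap Prss8 on the other strand, and whether the counting used strand is not stated. Kat8 was at 11.3 to 17.3 CPM in all 6 libraries, with a log2 fold change of 0.27 ± 0.27 (SE).

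Prss22, a tryptase-like protease described as secreted and not as anchored in the membrane, was the most variable member. It was at 73.0 and 22.4 CPM in the Elf5-positive libraries and at 4.89, 23.6, 19.6 and 7.71 CPM in the Elf5-negative ones (chr17:23993534-23998100, minus strand). Elf5-positive library 2 lay below Elf5-negative library 2, so the groups overlapped. The log2 fold change of 1.76 ± 0.66 (SE) was 0.67 without Elf5-positive library 1.

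Of the inhibitors, Spint2 was the more abundant. Spint2 (HAI-2, chr7:29256323-29281912, minus strand) was at 372 and 271 CPM in the Elf5-positive libraries and at 95.9, 115, 140.2 and 138 CPM in the Elf5-negative ones. The groups did not overlap. The means were 321 ± 71.4 CPM (SD, n = 2) and 122 ± 21 CPM (SD, n = 4), which is 1.39 ± 0.25 (SE) as a log2 fold change, or 2.62-fold.

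Spint1 (HAI-1, chr2:119237362-119249527, plus strand), the inhibitor that binds matriptase on the cell surface, was at 83.0 and 114 CPM in the Elf5-positive libraries and at 40.7, 48.2, 44.1 and 60.3 CPM in the Elf5-negative ones. It was the only member with a higher value in Elf5-positive library 2 than in library 1, and the groups did not overlap. The means were 98.3 ± 21.7 CPM (SD, n = 2) and 48.3 ± 8.53 CPM (SD, n = 4), which is 1.03 ± 0.24 (SE) as a log2 fold change, or 2.04-fold. Without Elf5-positive library 2 it was 0.78.

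The T2 libraries that share a title number gave the same direction. In the first of these pairs, Elf5-positive 1 over Elf5-negative 2, the log2 ratio was 1.79 for St14, 2.83 for Tmprss13, 2.17 for Prss8, 1.69 for Spint2 and 0.78 for Spint1. In the second, Elf5-positive 2 over Elf5-negative 4, these were 1.42, 2.58, 1.82, 0.97 and 0.92. All 9 members were higher in the Elf5-positive library of both pairs. The smallest ratio was that of Tmprss4 in the first pair, 0.11. These libraries belong to the contrast that chose the members, so the pairs are no separate evidence. The share of all genes higher in both pairs was not counted.

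Elf5-negative library 1 was the lowest of the 4 for 7 of the 9 members and for 9 of the 18 epithelial genes. Elf5-negative library 3 was the highest for 6 members and for 12 epithelial genes. In both sets library 1 was the most frequent lowest and library 3 the most frequent highest of the 4.

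The 18 epithelial genes had a median log2 fold change of 1.44, with a range of 0.66 to 2.07, and 10 of them passed the test as higher. Of the 9 members 5 lay above that median and 1, Tmprss13, lay above the whole range. With libraries scaled to these epithelial genes instead of by TMM, the members' median was 0.16, where the median of all genes moved to -1.44. On that scale 5 members stayed positive: Tmprss13 at 1.27, Prss8 at 0.53, Prss22 at 0.29, Hpn at 0.21 and St14 at 0.16. Spint2 at -0.09, Spint1 at -0.44, Tmprss2 at -0.57 and Tmprss4 at -1.08 turned to the other side of 0.

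Set in each library against the mean log2 level of the epithelial genes, Tmprss13 was 1.06 higher in Elf5-positive cells and Prss8 0.47 higher, both without overlap between groups. Tmprss4 had a difference of -1.14, also without overlap. With libraries scaled to the epithelial genes, the tested genes as a whole were shifted down too, with a median of -1.44. The negative value is therefore not particular to Tmprss4. The share of all genes without overlap against this epithelial mean was not counted, so nothing is read from these gaps. For the 6 others the groups overlapped on this measure, with differences of 0.16 for St14, 0.22 for Hpn, 0.28 for Prss22, -0.09 for Spint2, -0.40 for Tmprss2 and -0.46 for Spint1. How far the content of fibroblasts or other cells in the Elf5-negative libraries bears on these values was not tested.

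**Figure D2:**
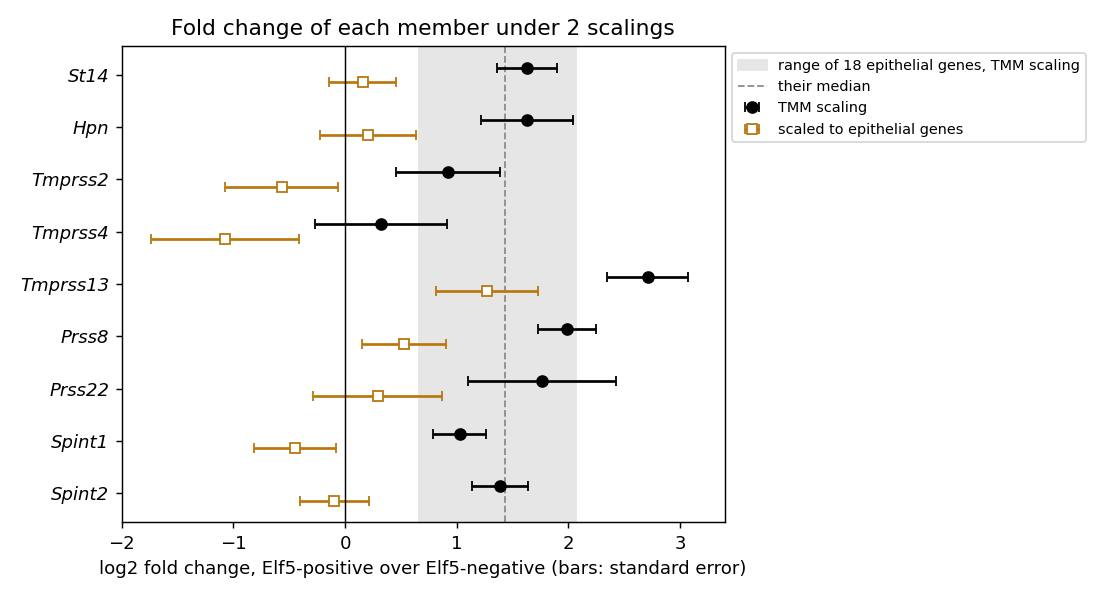
Log2 fold change of each gene, Elf5-positive over Elf5-negative, with its standard error, under TMM scaling (black circles) and with libraries scaled to the 18 epithelial genes (open squares). The grey band is the range of those 18 genes under TMM scaling, 0.66 to 2.07, and the dashed line their median, 1.44. Tmprss13 lies to the right of the band, and the 4 lowest open squares are those of Tmprss4, Tmprss2, Spint1 and Spint2.

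To compare genes with each other, CPM were divided by the length of the longest protein-coding transcript. Spint2 was highest in every library, at 232.0 ± 51.6 CPM per kb (SD, n = 2) in Elf5-positive and 88.4 ± 15.1 CPM per kb (SD, n = 4) in Elf5-negative cells. St14 followed at 135.0 ± 28.9 and 43.7 ± 9.15 CPM per kb, and Spint1 at 42.3 ± 9.34 and 20.8 ± 3.67 CPM per kb. These 3 ranks held in all 4 Elf5-negative libraries, and in Elf5-positive library 1 Prss22 lay above Spint1.

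Below them, Elf5-positive cells had Prss22 at 36.0 ± 27.0, Hpn at 20.5 ± 0.440, Prss8 at 18.8 ± 0.761, Tmprss2 at 13 ± 1.5, Tmprss13 at 5.52 ± 0.590 and Tmprss4 at 0.665 ± 0.0899 CPM per kb (SD, n = 2). The ranges of Prss22 overlapped those of Spint1 above it and Hpn below it, and the other neighbours were apart. In Elf5-negative cells the order was Prss22 at 10.5 ± 6.85, Tmprss2 at 6.82 ± 3.64, Hpn at 6.65 ± 2.96, Prss8 at 4.73 ± 0.882, Tmprss13 at 0.843 ± 0.241 and Tmprss4 at 0.522 ± 0.285 CPM per kb (SD, n = 4). There each of these genes overlapped the next, apart from Prss8 and Tmprss13.

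St14 made up 56.9% to 63.3% of the summed level of the 7 proteases per kb in all 6 libraries. Its share was 57.3% and 61.1% in Elf5-positive and 59.4%, 58.2%, 56.9% and 63.3% in Elf5-negative libraries. The groups overlapped, so the leading place of matriptase was common to both. Tmprss13 had a share of 2.19% and 2.72% in Elf5-positive and 1.01% to 1.26% in Elf5-negative libraries, without overlap. The largest shares beside St14 were those of Prss22 in Elf5-negative library 2, 23.0%, and Elf5-positive library 1, 20.3%. Tmprss2 in Elf5-negative library 1 followed at 19.4%. Orders and shares were computed only with the longest protein-coding transcript as length. With all exons joined, St14 has 7637 bases instead of 3259, and Prss22 has 1324 by either length. The share of St14 would then be lower.

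The balance of proteases and inhibitors was taken as the summed level per kb of the 7 proteases over that of Spint1 and Spint2. It was 0.892 and 0.767 in the Elf5-positive and 0.624, 0.744, 0.795 and 0.538 in the Elf5-negative libraries. Inhibitor transcripts exceeded protease transcripts in all 6 libraries with this length, and the groups overlapped, with a mean log2 difference of 0.31. Without the secreted and variable Prss22 the difference was 0.29 and the groups did not overlap, at 0.711 and 0.698 in Elf5-positive and 0.492 to 0.672 in Elf5-negative libraries. With all exons of a gene joined as its length instead, the ratio ran from 0.691 to 1.46, so whether it lay below 1 depended on the length used.

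The ratio of St14 to Spint2 per kb was 0.579 and 0.586 in Elf5-positive and 0.430 to 0.540 in Elf5-negative libraries, without overlap. St14 over Spint1 was 4.35 and 2.34 in Elf5-positive and 1.65 to 2.87 in Elf5-negative libraries, and these overlapped. Prss8 over St14 was 0.124 and 0.159 in Elf5-positive and 0.0952 to 0.120 in Elf5-negative libraries, apart by a narrow gap. How often ratios of other genes separate the groups was not counted, and the same contrast chose the members. Nothing is therefore read from the gaps in these ratios or in the balance without Prss22.

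**Figure D3:**
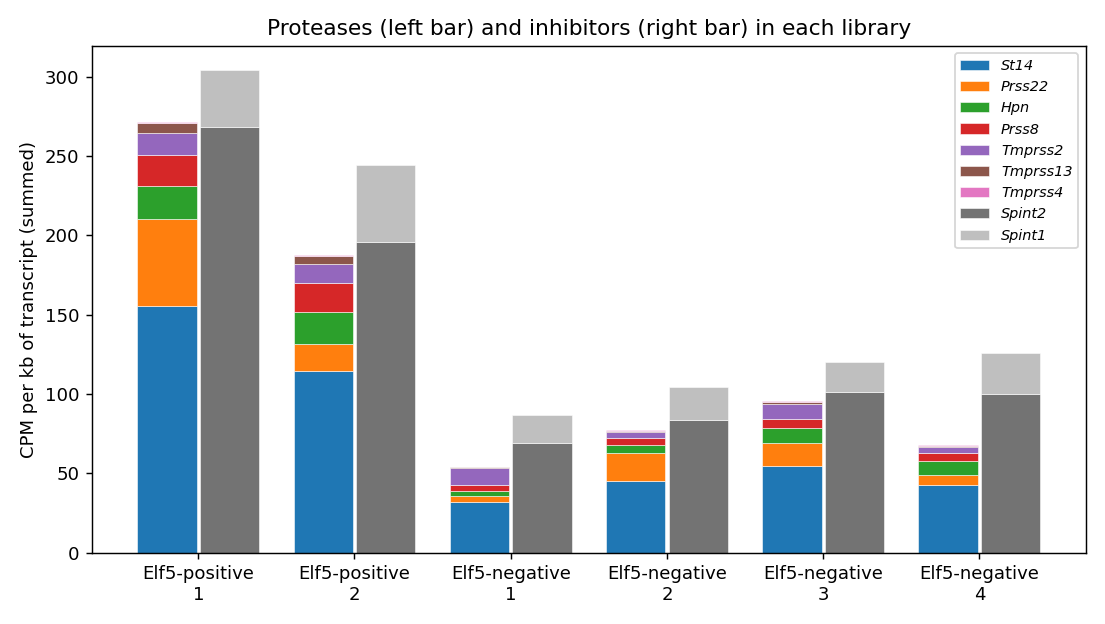
Summed level of the 7 proteases (left bar of each pair) and of the 2 inhibitors (right bar) in each library, in CPM per kb of the longest protein-coding transcript. St14 is the largest part of each left bar and Spint2 of each right bar, and the right bar is the taller in all 6 libraries.

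The profiles most like that of St14 over the 6 libraries, among 10436 well-expressed genes, were those of Acer2, Cblc, Mapk13, Tst and Ap1m2. Members, predicted genes and Rik clones were left out beforehand, so a member with a nearer profile would not appear. The root mean square difference of their centred log2 CPM from St14 was 0.111 to 0.158. Acer2, an alkaline ceramidase, was at 34.4 and 27.1 CPM in Elf5-positive and 6.88 to 11.2 CPM in Elf5-negative libraries. For Tmprss13 they were Ckmt1, Rab25, Bnipl, Tfap2c and Rbp7, with differences of 0.215 to 0.314. Ckmt1, a mitochondrial creatine kinase, was at 71.5 and 48.4 CPM in Elf5-positive and 8.74 to 12.6 CPM in Elf5-negative libraries. Of these 10 genes, Ap1m2 and Rab25 are on the epithelial list.

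The other genes of the system were taken from lists by function, drawn up with earlier results of these data known. Their calls and p-values below are therefore a description and no independent evidence. Of 17 other membrane-anchored serine proteases, such as Corin and the Tmprss11 cluster, only 7 had enough counts to be tested, and their median log2 fold change was -0.41. With edgeR's test 0 were higher and 0 lower, with 0 and 2 at an unadjusted p below 0.05 and none by DESeq2. The highest value of any of them was 2.24 CPM, for Tmprss11e in Elf5-negative library 3, and Tmprss11c was listed at 0 in all 6 libraries. Their summed level was 2.25 to 3.10 CPM in Elf5-positive and 2.37 to 5.47 CPM in Elf5-negative libraries.

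Among 19 substrates and receptors, 18 were tested, 1 rose and 4 fell, with a median log2 fold change of -0.44. The one that rose was Epcam, which matriptase cleaves and HAI-2 protects, at 1428 ± 78.2 CPM (SD, n = 2) in Elf5-positive and 510.3 ± 139 CPM (SD, n = 4) in Elf5-negative cells (log2 fold change 1.48 ± 0.30, SE, edgeR adjusted p = 0.0360). It is also on the epithelial list and was at 0.05 when libraries were scaled to that list, and the call was lost without either Elf5-positive library (adjusted p = 0.0742 and 0.126) and without Elf5-negative library 1, 2 or 4 (0.0958, 0.0907 and 0.0693), with a range of 0.000336 to 0.886 over 16 alternatives.

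Hgf, the growth factor whose precursor matriptase and hepsin activate, fell. It was at 0.135 and 0.155 CPM in Elf5-positive libraries, 14 counts in all, and at 9.08, 5.61, 14.7 and 4.63 CPM in Elf5-negative ones (log2 fold change -5.85 ± 0.73, SE, adjusted p = 0.0114). Its receptor Met was at 43.1 ± 12.2 CPM (SD, n = 2) and 33.4 ± 5.14 CPM (SD, n = 4), with overlapping groups (0.37 ± 0.26, adjusted p = 0.563). The Elf5-negative libraries also held 17469 to 51444 CPM of summed fibroblast markers, and the part of these cells in the Hgf level was not tested.

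Mst1r, the receptor of macrophage-stimulating protein, another hepsin and matriptase target, fell from 8.77 ± 3.72 CPM (SD, n = 4) in Elf5-negative to 0.540 ± 0.222 CPM (SD, n = 2) in Elf5-positive cells (log2 fold change -4.01 ± 0.62, adjusted p = 0.0161). F2r, the thrombin receptor of the protease-activated family, fell from 90.3 ± 46.5 to 12.1 ± 2.20 CPM (-2.90 ± 0.48, adjusted p = 0.0188). Pdgfd, a growth factor that matriptase can process, fell from 10.9 ± 8.26 to 0.417 ± 0.206 CPM (-4.71 ± 0.87, adjusted p = 0.0273). These 3 calls were lost without Elf5-positive library 2 (adjusted p = 0.0513, 0.0864 and 0.109) and without Elf5-negative library 1 (0.0541, 0.0535 and 0.0755). Those of Mst1r and Pdgfd were lost without Elf5-positive library 1 as well (0.0501 and 0.0547). Over all 16 alternatives the adjusted p ran from 2.68e-11 to 0.161 for Mst1r, from 9.70e-08 to 0.0878 for F2r and from 2.66e-09 to 0.143 for Pdgfd.

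Plau, urokinase, which matriptase activates, did not pass, at 66.7 and 19.8 CPM in Elf5-positive and 126, 219.6, 238 and 70.8 CPM in Elf5-negative libraries (-1.92 ± 0.65, adjusted p = 0.166). The log2 fold change was -3.05 without Elf5-positive library 1 and -1.30 without Elf5-positive library 2. Plau passed with DESeq2 (adjusted p = 0.0226), and in edgeR with no low-count filter (0.0323) and with libraries scaled to epithelial genes (0.00212). It also passed in the T2 libraries with the title number as a block (0.00452). The range for Plau over 16 alternatives was 0.00212 to 0.619. F2rl1, the receptor that matriptase and prostasin are known to switch on, was at 58.4 and 121 CPM in Elf5-positive and 36.4 to 76.2 CPM in Elf5-negative libraries (0.69 ± 0.37, adjusted p = 0.409, in a range of 0.0402 to 0.954 over 16 alternatives). It passed in the T2 libraries with the title number as a block (0.68, adjusted p = 0.0402), and without Elf5-positive library 2 its log2 fold change was 0.07. Scnn1a, a subunit of the sodium channel on which prostasin acts, was at 5.08 and 8.24 CPM in Elf5-positive and 2.78 to 6.83 CPM in Elf5-negative libraries (0.62 ± 0.46, adjusted p = 0.596). Met, F2rl1 and Scnn1a were on the other side of 0 with libraries scaled to epithelial genes, where Met passed as lower (-1.08, adjusted p = 0.0316, in a range of 0.0316 to 0.964 over 16 alternatives).

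**Figure D4:**
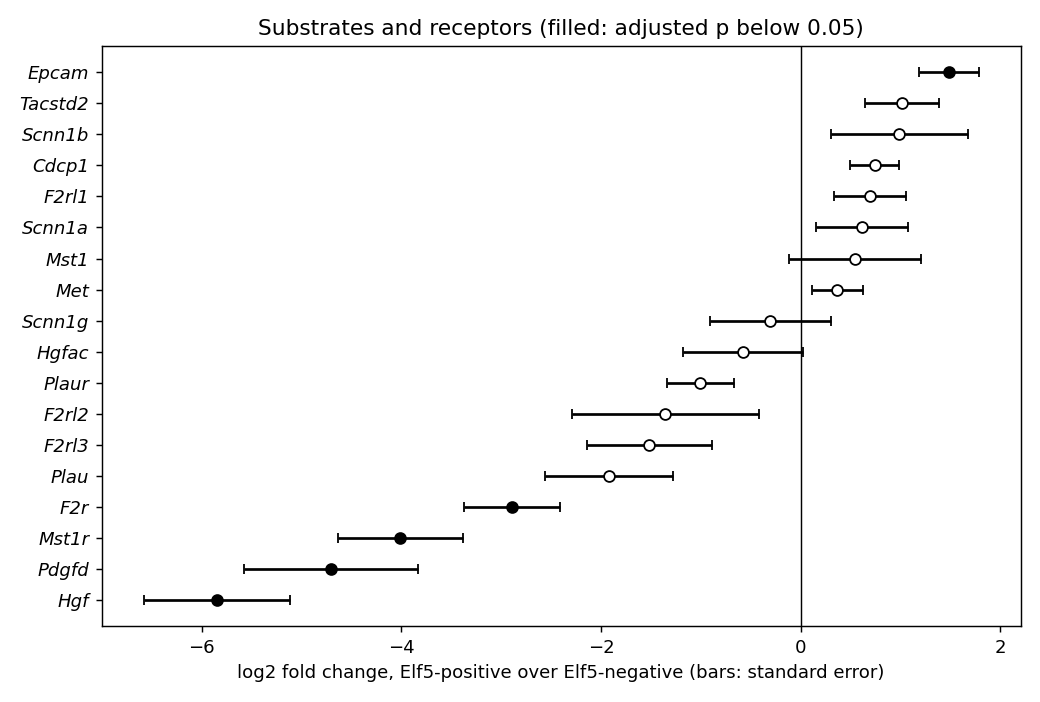
Log2 fold change with standard error of the 18 substrates and receptors that were tested, Elf5-positive over Elf5-negative. Filled points had an adjusted p below 0.05. Epcam at 1.48 is the filled point on the right, and Hgf, Pdgfd, Mst1r and F2r are those on the left.

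Of 18 other genes with a Kunitz domain, the fold that Spint1 and Spint2 use to block proteases, 10 were tested and their median log2 fold change was -1.24. With edgeR's test 0 were higher, 0 also at an unadjusted p below 0.05 and by DESeq2. Tfpi, the inhibitor of the tissue factor pathway, fell from 21.8 ± 10.3 CPM (SD, n = 4) in Elf5-negative to 1.03 ± 0.478 CPM (SD, n = 2) in Elf5-positive cells (log2 fold change -4.40 ± 0.63, SE, adjusted p = 0.0132, and 0.0520 without Elf5-positive library 2, in a range of 2.25e-13 to 0.117 over 16 alternatives).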

How the data were processed

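The 6 sorted libraries are 2 Elf5-positive and 4 Elf5-negative ones, by their genotype label. For each Ensembl gene the authors deposited an estimated count (expected count), in whole numbers. The submitters' processing notes name Salmon and GRCm38.p5. Salmon's version, the annotation, how transcripts were summed and any use of strand: not given in the sources used here. Salmon divides reads between similar transcripts by model, so near-identical genes are less certain.

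Symbols were matched for 52220 of 52325 IDs. Positions and lengths came from GENCODE M21 (GRCm38), coding stretches from its transcripts and promoter windows from RefSeq (GRCm38.p6). Genes were filtered with filterByExpr by group, scaled with TMM and compared with edgeR's quasi-likelihood test (edgeR 4.0.16 and limma 3.58.1 in R 4.3.3), with no block, at a Benjamini-Hochberg adjusted p below 0.05 over 20684 genes. Standard errors are the log2 fold change over the root of F, and the common biological coefficient of variation was 0.446. Figures were drawn with Python 3.11.15 and matplotlib 3.10.9. Log2 levels set against epithelial genes used a pseudocount of 0.5 CPM, and levels between genes were compared only per kb.

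The members and lists were chosen with earlier results of these data known. Named are the members, Epcam, F2rl1, Scnn1a, Met, Hgf, Plau, up to 6 called genes of each of 3 pathway lists, and the 5 genes nearest to St14 and to Tmprss13 in profile among genes whose average log2 CPM is 3 or more. Members, predicted genes and Rik clones were left out when the nearest profiles were sought. Tmprss11e and Tmprss11c were named after their values were seen, as were the overlapping genes. One listed gene, Tmprss11bnl, had no matching ID.

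On counts simulated for this comparison over 20684 genes, the test recovered 144 of 150 genes raised and 129 of 150 lowered by 3 on the log2 scale, 15 of 150 raised and 8 of 150 lowered by 1, and 13 of 309 calls were false. Changes near 1 are therefore often missed. Alternatives were other scalings, filters and lengths, DESeq2 1.42.0, a block for the title number, only the T2 libraries, and leaving out each library. Leaving out Elf5-negative libraries 1 and 2 together, and all exons joined as length, were added after seeing the data.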

Additional observations from a re-analysis of the deposited data

Results flagged for a closer look

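Of 20 values checked over the 4 Elf5-negative libraries, 1 had a library far from the others. F2r, the thrombin receptor, reached 159.8 CPM in Elf5-negative library 3, while the other 3 lay at 62.7 to 70.2 CPM, so the gap to the nearest was 0.924 of the whole range, past Dixon's critical value for 4 samples. Chance marks about 1 in 20 such groups.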

How the results depend on the processing

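With libraries scaled to epithelial genes, the members' median log2 fold change was 0.16, and these values changed sign: Tmprss2 -0.57, Tmprss4 -1.08, Spint1 -0.44, Spint2 -0.094, F2rl1 -0.75, Scnn1a -0.78 and Met -1.08. On that scale 17 genes were higher and 11822 lower in all (121 and 783 by TMM), 1 member (Tmprss13) was called, 2 other membrane-anchored proteases, 10 substrates and receptors and 8 other Kunitz genes were lower, and 0 substrates were higher. With no low-count filter 273 genes were higher, 1331 lower and 3 Kunitz genes lower, and with DESeq2 these were 436, 1763 and 4. The title number as a replicate block gave 252 higher genes and 2 lower Kunitz genes. Samples that share a number and T2 deviated together from their group means (correlations 0.502 and 0.555). There are only 2 such pairs. The deviations of the 2 Elf5-positive libraries from their mean are exact opposites, so the 2 correlations are not independent. The labels do not say what the number marks, so it is not taken as a pairing. In the T2 libraries alone with the replicate block, 549 genes were higher and 1368 lower, with 8 members called, 4 substrates higher and 3 Kunitz genes lower. Without the block edgeR called 0 genes, members or listed genes in either direction, with 469 genes higher, 1463 lower and 7 members at an unadjusted p below 0.05. Leaving out Elf5-negative libraries 1 and 2, 75 genes were lower and 0 higher (539 at an unadjusted p below 0.05), and 0 members, substrates or Kunitz genes were called. Leaving out 1 library gave 25 to 133 higher genes, 197 to 811 lower genes, 2 to 4 members called, a members' median of 1.24 to 1.75, 0 to 1 substrates higher, 1 to 4 lower, 0 to 3 Kunitz genes lower and a log2 difference in protease to inhibitor ratio of 0.20 to 0.42. The lowest count of higher genes, 25, was without Elf5-negative library 1, and the lowest count of lower genes, 197, without Elf5-positive library 2. With Spint1 alone as the inhibitor that difference was 0.62. The cause of these shifts was not tested. Fits that leave out libraries also rest on fewer samples, and the part of this was not tested either. The depth of Elf5-negative library 4 limits low genes such as Tmprss4, with 6 counts there.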

Other observations

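Other cell markers differed between the groups beside the fibroblast genes. Of 10 basal epithelial markers, a list that holds Krt5, Trp63 and Acta2, 5 were lower in Elf5-positive cells and 0 higher. Their median log2 fold change was -3.19. The summed level of the 10 overlapped, at 736 to 1078 CPM in Elf5-positive and 833 to 1534 CPM in Elf5-negative libraries. Of 8 endothelial markers 3 were lower and 0 higher, with a median of -1.57.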
